A study of Drosophila melanogaster with 3 samples.

Results

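The genes described here are the microRNA loci of Drosophila melanogaster, set against the places where the transcriptional regulator Snoo was found on chromatin in pupae. A locus was any gene of the Ensembl BDGP6 annotation whose name starts with mir-, and its position was that of the annotated hairpin. The annotation held 262 such genes, and the 260 on the 7 chromosome arms used were measured, out of 17796 annotated genes on those arms. A locus was called bound when the nearest peak summit lay within 1 kb of the hairpin, and by this rule 20 of the 260 loci were bound.

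Snoo is the fly counterpart of Ski and SnoN, corepressors that work with Smad proteins downstream of TGF-beta ligands. Chromatin immunoprecipitation with sequencing was made on whole pupae of mixed sex and unknown age. All animals carried the snoo-MiMIC insertion, in which an exon for eGFP placed in an intron of the gene yields a Snoo-eGFP fusion, and the chromatin was precipitated with an antibody to GFP according to the sample descriptions, although the antibody label reads Snoo. The 3 biological replicates, numbered 3, 5 and 6 in the labels, form 1 group called the Snoo-eGFP pupa here, with no control sample among them, so no test between groups is possible and replicates serve to show the spread. In whole animals, strong occupancy in few cells and weak occupancy in many cannot be told apart.

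A microRNA is cut from a hairpin inside a longer primary transcript, first by Drosha with Pasha in the nucleus and then by Dicer-1 in the cytoplasm, and the mature strand guides Argonaute to messenger RNAs that pair with its seed. Many fly hairpins lie in introns of protein-coding genes and are released from the host transcript, while others come from noncoding transcripts of their own whose start can be far from the hairpin. During metamorphosis, microRNAs such as let-7, mir-125, mir-14 and mir-8 act in steroid hormone timing and in growth.

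The mature sequences below were read by coordinates from the RefSeq copy of the dm6 genome, with the seed (bases 2 to 8) in capitals. They are shown because they group the bound loci by the messages they can pair with. All 260 loci had a mature sequence in RefSeq. The 3p strands of mir-92a and mir-92b, both bound and both within the gene jigr1, share a seed with mir-310, mir-311, mir-312 and mir-313, none of them bound. The seed of mir-2b-2, which is bound, is carried by 14 genes, of which 2 are bound, and its neighbour mir-2a-1 lay just outside the limit. The seed of mir-276a, bound, is shared with mir-276b, not bound. mir-279 and mir-996 share a seed, and their common host transcript starts at the strongest peak found near any host.
mir-92a 3p: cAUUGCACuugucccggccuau
mir-92b 3p: aAUUGCACuagucccggccugc
mir-2b-2 3p: uAUCACAGccagcuuugaggagc
mir-2a-1 3p: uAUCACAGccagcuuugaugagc
mir-276a 3p: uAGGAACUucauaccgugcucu
mir-276b 3p: uAGGAACUuaauaccgugcucu
mir-279 3p: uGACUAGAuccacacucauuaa
mir-996 3p: uGACUAGAuuucaugcucgucu

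The strongest nearest peak of a bound locus was that of mir-9377, the strongest nearest peak of intergenic hairpins was shared by mir-275 and mir-305, and mir-9377 and mir-305 each carried a seed that no other locus has.
mir-9377 3p: cUUGAUGGggagaaggagagg
mir-305 5p: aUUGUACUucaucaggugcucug
mir-275 3p: uCAGGUACcugaaguagcgcgcg

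The 151 bases centred on the summit of 5 peaks are given next, on the plus strand of dm6, because they are 3 of the strongest nearest peaks of bound hairpins, the one inside a hairpin, and the one at the start of the mir-279 and mir-996 transcript. Capitals mark matches on either strand to AGAC (the Smad box), GAGAG (bound by GAGA factor) or AGATAAG (recognised by GATA factors).
mir-9377 peak, chrX:12665559-12665709: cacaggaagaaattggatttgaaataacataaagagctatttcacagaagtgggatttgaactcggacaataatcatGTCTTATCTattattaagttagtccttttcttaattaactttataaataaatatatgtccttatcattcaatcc
mir-275 and mir-305 peak, chr2L:7425294-7425444: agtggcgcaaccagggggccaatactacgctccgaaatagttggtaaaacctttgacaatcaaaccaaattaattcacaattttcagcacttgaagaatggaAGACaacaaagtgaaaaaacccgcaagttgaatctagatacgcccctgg
mir-92a peak, chr3R:25646935-25647085: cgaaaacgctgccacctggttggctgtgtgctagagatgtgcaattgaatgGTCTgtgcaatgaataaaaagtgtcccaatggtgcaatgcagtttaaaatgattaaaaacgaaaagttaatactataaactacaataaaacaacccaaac
mir-4962 peak, chrX:3777335-3777485: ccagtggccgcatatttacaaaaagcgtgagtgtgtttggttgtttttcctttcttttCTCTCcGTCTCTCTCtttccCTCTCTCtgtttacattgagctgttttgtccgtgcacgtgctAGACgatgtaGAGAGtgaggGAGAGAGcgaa
mir-279 and mir-996 host peak, chr3R:29214371-29214521: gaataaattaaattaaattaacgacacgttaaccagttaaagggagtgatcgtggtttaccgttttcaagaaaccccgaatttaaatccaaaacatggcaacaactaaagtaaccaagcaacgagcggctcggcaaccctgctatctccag

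Peaks came from the list of 6633 regions that passed the authors' threshold on the irreproducible discovery rate (IDR) between replicates. Peak signal is the authors' own value per region, made against a control alignment, and is used to rank and describe peaks. The candidate lists, of 29994 to 30000 regions per replicate on these arms and 30000 for the pooled replicates, include background by design. The 6633 strongest regions of each replicate were therefore used to show the spread. Signal has its own scale in each list, with a median of 62.9 over the regions used of replicate 3, 71.1 of replicate 5 and 104 of replicate 6, so signals are compared within 1 list only. The files hold no read counts, so the depth is unknown. Because neighbouring hairpins and overlapping peaks are not independent, the exact (Clopper-Pearson) 95% intervals given for shares cover counting error only.

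Hairpins were bound less often than the 5' ends of other genes. In the IDR list 7.69% of the 260 hairpins were bound (interval 4.76% to 11.6%), beside 21.6% of 17536 other annotated genes with a summit within 1 kb of the 5' end. In the replicates the share of hairpins was 9.36% ± 0.80 (SD, n = 3) and that of other genes 22.3% ± 0.48. The difference, hairpins minus other genes, was -12.1 percentage points in replicate 3, -12.5 in replicate 5 and -14.1 in replicate 6, a mean of -12.9 ± 1.06 (SD, n = 3) that is larger than the spread between replicates. Of all bases on the arms, 8.21% lay within 1 kb of an IDR summit, a share inside the counting interval of the hairpins.

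The median distance from a hairpin to the nearest IDR summit was 9384 bp, against 6831 bp from the 5' end of other genes. A summit lay within 500 bp of 13 hairpins, within 2 kb of 41 and within 5 kb of 85, the last being 32.7% of hairpins beside 43.0% of other genes. At the far end, 126 hairpins had no summit within 10 kb and 27 had none within 50000 bp. In the pooled candidate list, which contains background, 83 hairpins had a summit within 1 kb, and 47.2% of other genes did.

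**Figure D1:**
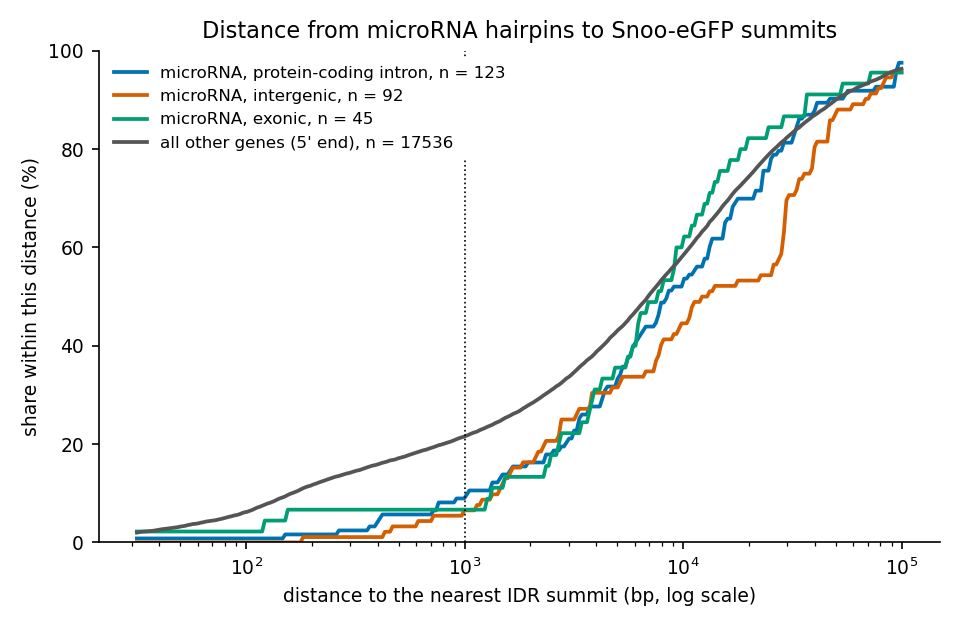
Share of microRNA hairpins, by class, and of the 5' ends of all other genes (vertical axis, %) with an IDR summit within a given distance (horizontal axis, bp, log scale). The dotted line marks 1 kb, where 8.94% of intronic, 6.52% of intergenic and 6.67% of exonic hairpins lie to the left, beside 21.6% of other genes.

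Hairpins were then separated by position. Introns of protein-coding genes held 123, of which 11 were bound (8.94%, interval 4.55% to 15.4%). Intergenic sequence held 92, of which 6 were bound (6.52%, interval 2.43% to 13.7%), and the other 45 overlapped a protein-coding exon, of which 3 were bound (6.67%, interval 1.40% to 18.3%). In each of the replicates 10.6% of the intronic hairpins were bound, and 8.33% ± 1.66 (SD, n = 3) of the intergenic ones. The SD of 0 for intronic hairpins comes from equal totals of different loci, since 11, 12 and 13 hairpins on the host's strand and 2, 1 and 0 on the opposite strand were bound in replicates 3, 5 and 6. The difference between intronic and intergenic hairpins is within the counting intervals of either share, and its order is not stable: without replicate 6 the shares were 5.69% and 6.52%, and among the 3317 peaks with the highest signal 3.25% and 5.43%. Of the sequence in which the hairpins sit, 9.48% of intronic, 6.51% of intergenic and 8.40% of exonic bases lay within 1 kb of an IDR summit, and each value is inside the counting interval of the hairpins' share in the IDR list.

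Within introns, hairpins on the strand of the host were bound in 10 of 101 cases and those on the opposite strand in 1 of 22. Hairpins that fill an intron, the arrangement of mirtrons, which splicing releases without Drosha, were bound in 1 case of 34, mir-2501. A protein-coding start within 1 kb of the hairpin went with a higher share: 10 of 66 such hairpins were bound in the IDR list and 17.7% ± 2.31 in the replicates, against 10 of 194 and 6.53% ± 0.30 (SD, n = 3) for hairpins without one. Of the 92 intergenic hairpins, 43 lay within an annotated noncoding gene, of which 4 were bound, and 49 lay outside any gene, of which 2 were bound. Hairpins in clusters, within 10 kb of another, were bound in 5 of 89 cases and single ones in 15 of 171.

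**Figure D2:**
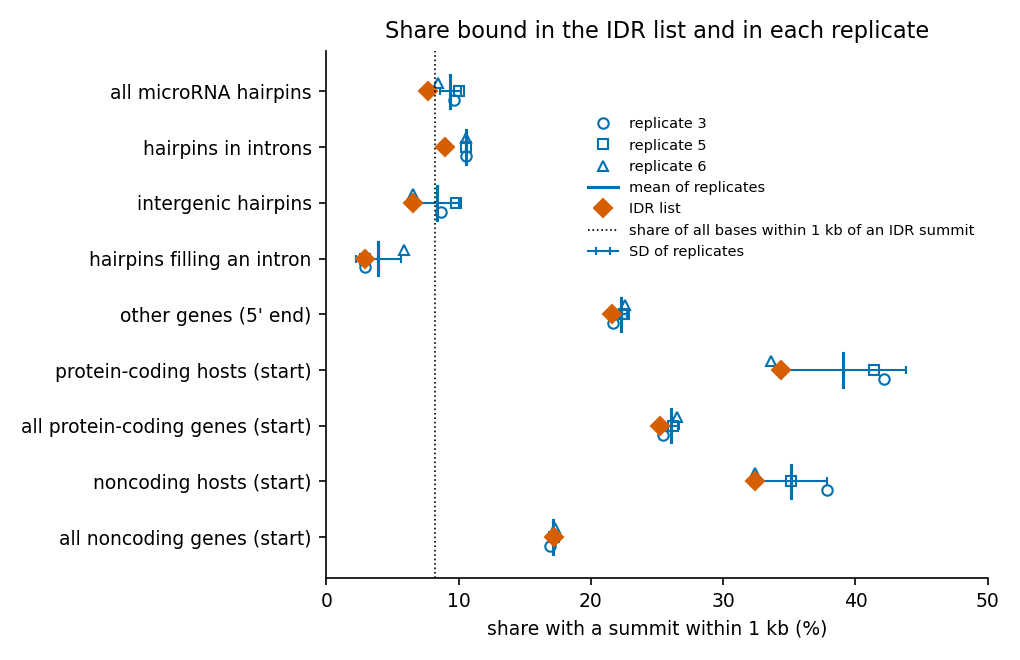
Share with a summit within 1 kb (horizontal axis, %) for microRNA hairpins, for the 5' ends of other genes and for the starts of host transcripts beside all genes of the kind. Open symbols are replicates 3, 5 and 6, vertical bars their mean with horizontal bars for the SD, and diamonds the IDR list; hairpins sit near the dotted line at 8.21%, the share of all bases, and host starts lie between 32.4% and 42.2%.

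The strongest nearest peak of any bound hairpin belonged to mir-9377, in an intron of Tis11, which encodes the fly tristetraprolin protein that promotes decay of messages with AU-rich elements. Its summit lay 366 bp downstream of the hairpin at chrX:12665217-12665268 and 5100 bp from the nearest protein-coding start. The signal was 531 in the IDR list, 96.4 in replicate 3, 130 in replicate 5 and 299 in replicate 6. Each value is above the median of its list. The Tis11 start itself carried a weaker peak, of signal 149.

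Of the other intronic loci, mir-308 and mir-92a had their peak near a start of the host gene. mir-308 lies in RpS23, which encodes a protein of the small ribosomal subunit, and carries the seed of mir-2b-2. Its nearest summit was 756 bp upstream and 7 bp from the RpS23 start, with a signal of 334 in the IDR list and 104, 104 and 157 in replicates 3, 5 and 6. A second summit lay 825 bp away, with a signal of 195. mir-92a, at chr3R:25646506-25646600, had its summit 410 bp downstream, 236 bp from a start of jigr1. The signal was 327 in the IDR list and 66.8, 114 and 162 in the replicates. That start lies downstream of the hairpin, and the nearest start of a jigr1 transcript that spans mir-92a was 6713 bp from the hairpin. The nearest peaks of both loci were above the median of every list.

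mir-4962 was the only locus with a summit inside the hairpin, at chrX:3777382-3777505 in an intron of Tlk, which encodes the Tousled-like kinase of chromatin assembly. The signal was 217 in the IDR list and 41.7, 100 and 84.5 in replicates 3, 5 and 6. It was above the median of its list in replicate 5 only. Stronger summits of signal 296 and 261 lay 934 and 867 bp away on either side, so the hairpin sits in a group of 3 peaks. mir-966, in an intron of Pfas, an enzyme of purine synthesis, had its summit 398 bp upstream and 61 bp from the Pfas start, with a signal of 211 and replicate values of 27.3, 73.0 and 113. Replicate 3 was low here, and the locus was not bound in it.

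mir-2491, at overlapping introns of fog and CG42346, had a signal of 198 in the IDR list and 104, 36.2 and 63.6 in replicates 3, 5 and 6, with the summit 148 bp upstream. The locus was not bound in replicate 5, where the value was lowest. mir-2501 fills an intron of Nulp1, and its summit, 752 bp upstream and 13 bp from the Nulp1 start, had a signal of 194, with 39.7 in replicate 3 and 88.1 in replicate 6. No candidate of replicate 5 fell within 150 bp of this summit. The intronic loci with the weakest nearest peaks were mir-4968 in Mob2 with a signal of 162, mir-4946 in tup with 154, mir-4978 opposite to mam with 151 and mir-2b-2 in spi with 129. mir-4968 also had stronger summits within 1 kb, of signal 182 and 200. mir-4978, the one bound hairpin on the strand opposite to its host, had 53.0, 44.9 and 43.8 in replicates 3, 5 and 6 and was bound in replicate 3 only. mir-2b-2 had 27.2, 48.5 and 66.4 and was not bound in replicate 3. Each of these 2 loci was bound under 3 of the 8 alternative windows, peak sets and left-out replicates. tup encodes a LIM homeodomain factor, mam the Notch coactivator Mastermind and spi an EGF receptor ligand.

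Among intergenic hairpins, mir-275 and mir-305 shared 1 summit. It lay 426 bp upstream of mir-275, at chr2L:7425795-7425892, and 603 bp upstream of mir-305, at chr2L:7425972-7426044. In mosquitoes mir-275 is needed for blood digestion and egg development. The signal was 393 in the IDR list and 75.7, 126 and 201 in replicates 3, 5 and 6, above the median of every list. Only mir-8, among the bound intergenic hairpins, had a stronger summit within 1 kb, which was not its nearest. The pair had 5 summits within 5 kb, the strongest with a signal of 649.

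mir-14, a suppressor of cell death that also acts in ecdysone signalling, lay just inside the limit, 970 bp from its summit. The signal was 304 in the IDR list and 95.2, 123 and 93.3 in replicates 3, 5 and 6. Replicate 6 was below the median of its list and the other two above theirs. The summit was 52 bp from the start of lncRNA:CR43651, the noncoding transcript that spans the hairpin.

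mir-276a, which in flies acts on a dopamine receptor in olfactory memory, had its summit 182 bp upstream, with a signal of 201 in the IDR list, 106 in replicate 3, 56.0 in replicate 5 and 50.04 in replicate 6. Replicate 3 was high, and the locus was not bound in replicate 6. mir-2496 had 2 summits within 1 kb, the nearest at 467 bp with a signal of 203 and the stronger at 751 bp with 267. The nearest had 21.3 in replicate 3 and 108 in replicate 6, with no candidate of replicate 5 within 150 bp. The stronger one had 44.0, 67.5 and 164 in replicates 3, 5 and 6. mir-8, the fly member of the mir-200 family and a regulator of body growth in the fat body, had its nearest summit at 710 bp with a signal of 133 and a stronger one at 915 bp with 477. The stronger summit had 104, 162 and 221 in replicates 3, 5 and 6, above the median of every list.

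The 3 bound hairpins that overlap exons had weak peaks. mir-92b, which limits the muscle factor Mef2, had a summit 119 bp downstream of chr3R:25651398-25651497 with a signal of 181, and 50.6, 49.1 and 82.8 in replicates 3, 5 and 6. mir-4949, in ATPsynC, a subunit of ATP synthase, had a signal of 169. mir-11182, in CG5726, had a summit 14 bp away with a signal of 128, close to the lowest of the list, and was bound in 1 replicate.

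Just outside the limit were mir-2a-1 at 1005 bp, from the nearest peak of mir-2b-2, mir-2493 at 1024 bp from a peak of signal 423, and mir-279 at 1139 bp from a peak of signal 2650. The limit of 1 kb thus leaves out the hairpin next to the strongest peak of any host start.

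**Figure D3:**
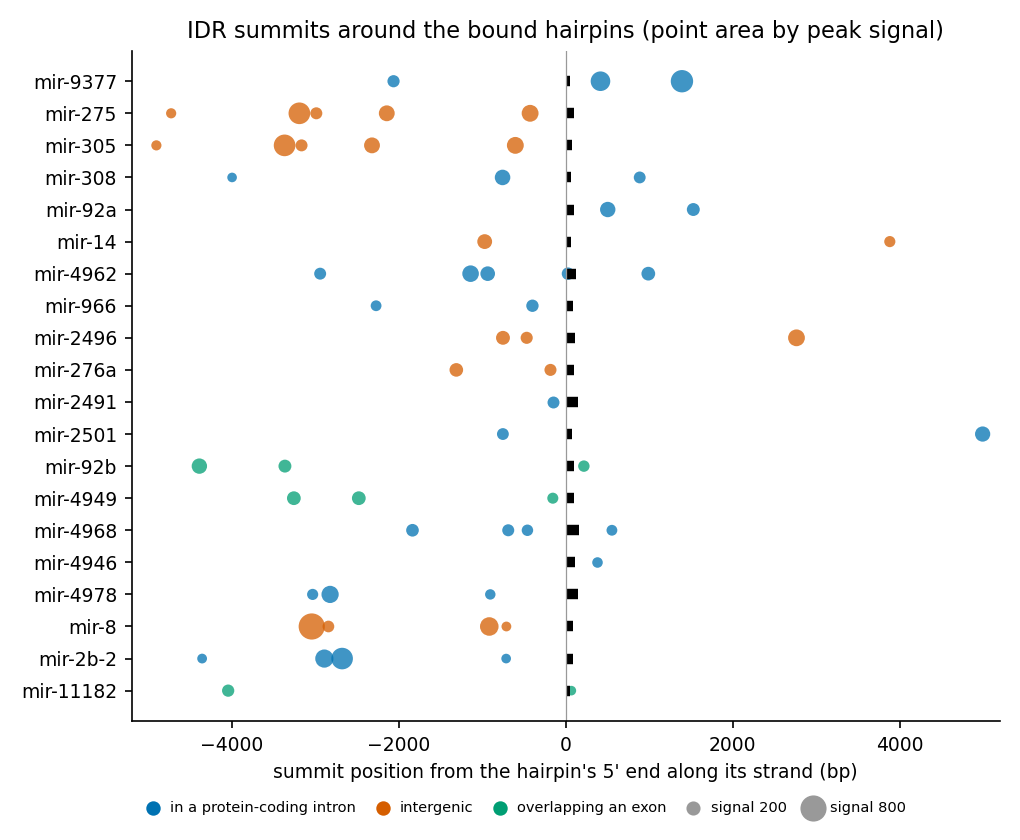
IDR summits within 5 kb of the 20 bound hairpins, ordered by the signal of the nearest peak (vertical axis), at their distance from the hairpin's 5' end along its strand (horizontal axis, bp). Black bars are hairpins, point area is proportional to signal and colour gives the class; mir-4962 has a summit inside the bar, and the larger points at mir-8 and mir-2b-2 lie more than 2 kb upstream.

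The 20 bound loci had 19 different nearest peaks. Their median signal was 198 (range 128 to 531), beside 222 over all IDR peaks, and 5 of the 19 were above the median of the list. In the replicates, the median signal of regions near hairpins was 0.843 ± 0.042 (SD, n = 3) times the median of the list. The summit was upstream of 13 loci, downstream of 6 and inside 1. Of these 19 peaks, 10 were found among the strongest regions of all 3 replicates, 6 in 2 and 3 in 1. Over the whole list, 3682 of 6633 IDR peaks were found in all 3, a similar share. Of the 20 loci, 13 were bound in all 3 replicates, 5 in 2 and 2 in 1. A protein-coding start lay within 1 kb of 8 of the 19 summits (42.1%), beside 49.2% of all IDR summits, and a start of an annotated noncoding RNA other than a microRNA within 1 kb of 3 (15.8% beside 7.87%).

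Short sequences were counted within 100 bp of the summit on both strands. AGAC was present at 8 of the 19 peaks (42.1%) and at 54.4% of all IDR peaks, including the peaks of mir-275 and mir-305, mir-92a and mir-9377. GAGAG was present at 6 (31.6%) and at 26.6% of all, and AGATAAG at 1 (5.26%), that of mir-9377, and at 2.83% of all. None of the 19 held GTCTAGAC, TATCGATA or CAGGTAG, which were found at 0.136%, 2.25% and 0.874% of all IDR peaks. AGAC lies within GTCTAGAC, and the GAGAG matches in mir-4962 overlap each other in the runs of CT and GA printed above. The median GC content of these windows was 40.3%, beside 35.8% over all IDR peaks.

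The loci were next read by known function, in 6 lists whose counts stand beside the 7.69% bound of all hairpins. The counts are small, so nothing particular to a list is read from them. Of 6 microRNAs of developmental timing and metamorphosis, mir-14 and mir-8 were bound, and the median distance over the 6 was 1770 bp. The 3 hairpins of the let-7 complex were not bound, at 1470 bp for mir-100, 2070 bp for mir-let7 and 2351 bp for mir-125. mir-34 lay at 10936 bp. Of 19 microRNAs of growth and cell death, mir-2b-2 and mir-308 were bound, with a median distance of 5922 bp, and mir-ban, the growth regulator bantam, lay at 1436 bp from a peak of signal 629.

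Of the 4 microRNAs listed under muscle, mir-92a and mir-92b were bound. A muscle role is stated above for mir-92b but not for mir-92a. mir-1 and mir-133, needed in muscle, lay at 58340 and 28860 bp. Of 14 microRNAs of the nervous system and sense organs mir-276a alone was bound, and mir-279 was near the limit. None of 4 in the Hox clusters was bound, with mir-10 the nearest at 2715 bp and mir-iab-4, mir-iab-8 and mir-993 beyond 10 kb. None of 28 in clusters known for expression in testis was bound, beside 7.69% of all hairpins, and their median distance, 37823 bp, was the largest of the 6 lists, beside 9384 bp for all hairpins. Within this list mir-310 to mir-313 lay at 1192 to 1630 bp and mir-959 to mir-964 at 94055 to 95217 bp, so neighbours share their distance. All 6 lists were chosen by name and are small, and clustered members share peaks.

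Because a primary transcript can start far from its hairpin, the start of each annotated transcript that spans a hairpin on its strand was measured in the same way. Such a host transcript existed for 182 of the 260 hairpins. Of these, 66 (36.3%) had a host start within 1 kb of an IDR summit. Counted per gene, 25.2% of protein-coding and 17.2% of noncoding genes other than microRNAs had a summit within 1 kb of any start. Of all 260 hairpins, 72 were bound at the hairpin or had a bound host start, a count for which no share over all genes was computed.

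Noncoding hosts numbered 37, and 12 had a bound start (32.4%), beside 17.2% of 2548 noncoding RNA genes other than microRNAs, which include the hosts. In the replicates 35.1% ± 2.70 of the hosts were bound, 18.0 ± 2.90 percentage points (SD, n = 3) above all noncoding genes. The hosts were longer, with a median of 6436 bp against 714 bp. Among genes of up to 5 kb, 4 of 15 hosts (26.7%) were bound beside 16.9% of all noncoding genes of that length, a difference of 12.1 ± 3.84 points over the replicates. From 5 to 20 kb it was 6 of 17 (35.3%) beside 25.8%, and 9.91 ± 9.96 points, which is within the spread of the replicates. Above 20 kb, where hosts were few, it was 2 of 5 beside 4 of 26, and 32.6 ± 7.11 points (SD, n = 3). These SDs show the spread between replicates over the same hosts and do not cover the counting error of so few hosts.

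The strongest of these peaks was at the start of lncRNA:CR31044, the transcript of mir-279 and mir-996, which in flies repress the formation of CO2-sensing neurons and act in photoreceptor fate. The summit lay 116 bp from the start and 1139 bp from the mir-279 hairpin. The signal was 2650 in the IDR list, higher than 99.8% of the list, and 604, 766 and 1272 in replicates 3, 5 and 6. Its summit sequence, printed above, held none of the short sequences searched within 75 bp.

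lncRNA:CR43650, the host of mir-8, followed with a signal of 948 at 705 bp from a start, and 135, 265 and 563 in replicates 3, 5 and 6. lncRNA:Hsromega, the heat shock RNA of nuclear speckles, spans mir-4951 and had a signal of 566, with 137, 149 and 281 in the replicates. lncRNA:CR45916, the host of mir-9a, which limits the number of sensory organ precursors, had 408, with 158, 70.4 and 194. Replicate 5 was low at the last, and the 3 values at the other two rose in the order of the medians of the lists.

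lncRNA:let7C, the polycistronic transcript of mir-100, mir-let7 and mir-125 that is induced at metamorphosis, had a summit 556 bp from its start with a signal of 293, and 110, 101 and 83.4 in replicates 3, 5 and 6. Replicate 6 was below the median of its list. The hairpin of mir-let7 lies 16317 bp from the nearest start of this transcript. lncRNA:CR43857, the host of mir-275, had 348, with 104, 146 and 139 in the replicates, from a summit 168 bp from its start that differs from the one near the hairpin.

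lncRNA:CR46006, the host of mir-276a, had 256 at 101 bp from a start, with 95.5, 113 and 65.4 in replicates 3, 5 and 6. lncRNA:CR43334, the host of mir-ban, had 207 at 541 bp, with 46.4, 108 and 54.0. lncRNA:CR43314, the host of mir-bft, the bristle-protecting microRNA also called mir-263a, had the weakest, 147, and its start was bound in 1 replicate. The starts of the other 11 bound noncoding hosts were bound in all 3 replicates.

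**Figure D4:**
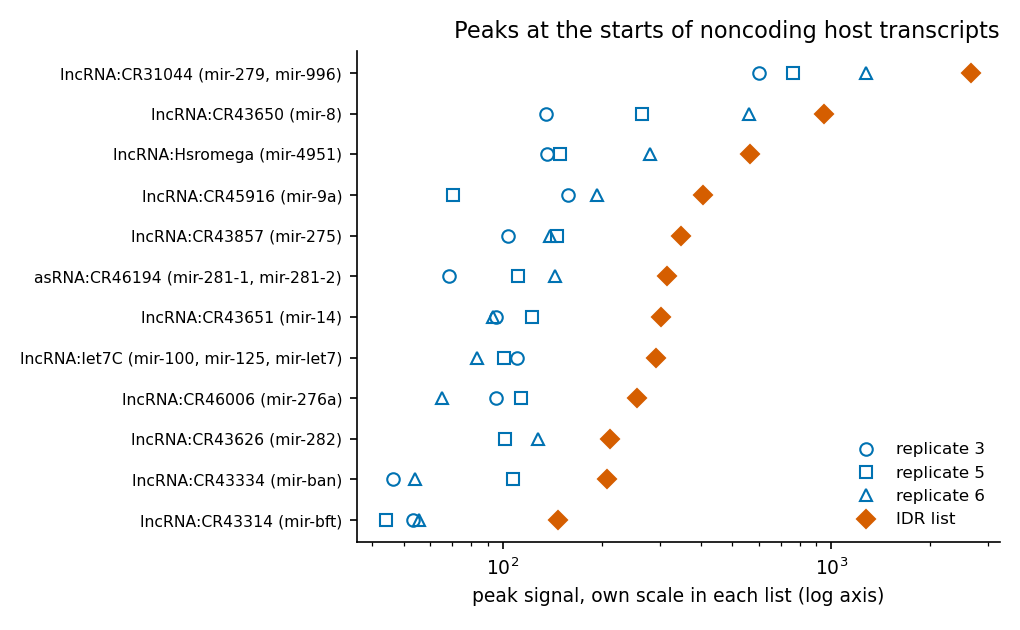
Peak signal (horizontal axis, log scale, own scale in each list) at the 12 bound starts of noncoding host transcripts, with their hairpins in brackets. Open symbols are replicates 3, 5 and 6 and diamonds the IDR list; lncRNA:CR31044 lies highest in every list, at 2650 in the IDR list, and lncRNA:CR43626 has no summit of replicate 3 within 150 bp.

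Among the noncoding hosts without a bound start, the nearest summit lay at 1044 bp for lncRNA:CR45917, a host of mir-92b, at 1045 bp for lncRNA:CR43836, the host of mir-31b, and at 1074 bp for lncRNA:CR44206, the host of mir-184. The start of lncRNA:CR44504, the host of the cluster from mir-309 to mir-6-3, which clears maternal messages in the embryo, was 29655 bp from a summit. The starts of lncRNA:CR45361, the host of mir-1, and of lncRNA:CR45919, the host of mir-124, were 55298 and 76428 bp away.

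Protein-coding hosts numbered 128, and 44 had a bound start on a transcript that spans the hairpin (34.4%), beside 25.2% of 13968 protein-coding genes with a summit within 1 kb of any start. In the replicates 39.1% ± 4.75 of the hosts were bound, 13.0 ± 5.21 percentage points (SD, n = 3) above all protein-coding genes. Hosts were again longer, with a median of 14095 bp against 2165 bp. Within bands of length the difference was smaller. Of hosts of up to 5 kb 7 of 41 (17.1%) were bound beside 20.6% of all such genes, from 5 to 20 kb 17 of 39 (43.6%) beside 38.4%, and above 20 kb 20 of 48 (41.7%) beside 41.0%. Over the replicates these differences were 1.60 ± 4.21, 5.06 ± 1.48 and 5.99 ± 5.88 points (SD, n = 3). The first lies within its SD, the last is about as large as its SD, and that of the middle band is larger. The SD shows the spread between replicates over the same hosts and does not cover counting error. No counting interval was computed for host shares, so no excess of hosts is read from a single band.

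The strongest peaks at protein-coding hosts were at CG5953 with mir-4943 (signal 1262), CG12241 with mir-9383 (889) and spi with mir-2a-1, mir-2a-2 and mir-2b-2 (788). The spi start had 195, 186 and 396 in replicates 3, 5 and 6, so the hairpins of the mir-2 family, which lay near a weak peak, belong to a transcript with a strong one. For jigr1, the strongest peak at starts of transcripts that span mir-92a had 687, with 190, 194 and 301. The jigr1 start of transcripts that span mir-92b had another peak, of 243, with 55.4, 74.1 and 110. grp, which encodes the checkpoint kinase Chk1, hosts mir-9b, mir-9c, mir-79 and mir-306 and had 675 at 993 bp, with 235, 191 and 269. The protein-coding start nearest to that summit was of CG31807, at 389 bp. SREBP, the regulator of lipid synthesis, hosts mir-33 and had 536, with 149, 173 and 224. All values of these 4 hosts were above the medians of their lists, except that of replicate 3 at the jigr1 start for mir-92b.

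Other bound hosts were bun, a TSC22 family factor, with mir-967 (signal 755), Sxl, the sex-determination gene, with mir-4956 (356), rhea, the fly talin, with mir-190 (172), and Gmap with mir-12, mir-283 and mir-304 (144). The 44 hosts had 42 different strongest peaks, since overlapping hosts of 1 hairpin share a peak. The median of the strongest peak per host was 326 at the 44 protein-coding and 309 at the 12 noncoding hosts. The same choice of the strongest peak over all bound genes gave 252 for 3526 protein-coding and 266 for 438 noncoding genes, which include the hosts. Neither comparison was matched for gene length, and the 12 noncoding hosts ranged from 147 to 2650.

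The genes that make and use microRNAs were read last, as a list of 20. At the 5' end 5 were bound: gw, which encodes the silencing partner of Argonaute, r2d2, the partner of Dicer-2, Cbp20 of the nuclear cap-binding complex, Nbr, an exonuclease that trims mature microRNAs, and Tailor, which adds uridines to hairpins of mirtrons. Over all protein-coding genes, 23.2% had a summit within 1 kb of the 5' end. Another start of AGO1, the Argonaute of microRNAs, was also bound. That makes 6 of 20 by any start, beside the 25.2% of protein-coding genes given above. The strongest was r2d2, with a signal of 482 and 114, 135 and 229 in replicates 3, 5 and 6. Tailor had 332, with 125, 99.3 and 111, and gw 290, with 123, 87.6 and 82.8. AGO1 had 202, Cbp20 211 and Nbr 140. The nuclease Drosha, its partner Pasha, Dicer-1 and its partner Loqs were not bound: the nearest summit was 15814 bp from drosha, 9585 bp from Dcr-1 and 3935 bp from loqs, and a peak of signal 1282 lay 1799 bp from pasha.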

How the data were processed

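Chromatin immunoprecipitation with sequencing of 3 replicates of 1 group was analysed from peak lists on dm6. The peak signal was deposited by the authors, who derived it with a control alignment according to the file listings. The −log10 of the q-value, also deposited by the authors, was used only to break ties in signal. The sources used here do not name the aligner, the peak caller or the IDR threshold. Lists on dm3 and the control alignment were not analysed here.

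Summits were the list positions. Hairpins, starts and exons came from Ensembl release 115 (BDGP6), whose coordinates are those of dm6, and sequence from the RefSeq copy of that assembly. The 7 arms were 2L, 2R, 3L, 3R, the X and Y chromosomes and chromosome 4, and no peak ran past an arm. Transposable elements and 481 entries for mature microRNAs inside the hairpins were left out of the genes. A hairpin overlapping an exon by at most 3 bp counted as intronic. A feature with a summit at most 1000 bp away was bound. Summits of different lists at most 150 bp apart were treated as 1. Replicate values came from the 6633 strongest regions of each, and the signal of a peak in a replicate was that of the strongest candidate summit within 150 bp. Shares carry the mean and SD over replicates. No test was run across genes. Distances were tested on simulated positions and all were recovered.

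Named were the 12 strongest bound loci, loci next to the limit, bound members of 6 lists and bound pathway genes. Further loci and hosts were named after their values were seen. Members and lists were chosen with earlier results of these data known. mir-263a was matched to mir-bft and nbr to Nbr by synonym. Alternatives were other windows, peak sets, left-out replicates, interval overlap, the 5' end, merged clusters and hairpins away from starts. Host starts and length bands were added after seeing the data. Python 3.11.15, numpy 2.4.6, scipy 1.17.1, pandas 2.3.3 and matplotlib 3.10.9 were used.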

Additional observations from a re-analysis of the deposited data

How the results depend on the processing

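No paired analysis was possible because the series holds 1 group. With distances measured from the hairpin, no difference between hairpins and other genes changed sign. Windows of 500, 2000 and 5000 bp gave 5%, 15.8% and 32.7% of hairpins bound (5.69%, 16.3% and 32.5% of intronic and 3.26%, 16.3% and 31.5% of intergenic ones) and differences from other genes of -12.2, -12.4 and -10.3 percentage points. Windows of 2000 and 5000 bp gave a median signal of 211 and 210. The 3317 peaks with the highest signal gave 3.46% of hairpins, 3.25% of intronic and 5.43% of intergenic ones, a difference of -8.60 points and a median signal of 330. The 3682 peaks found in all 3 replicates gave 5%, 4.88%, 5.43%, -8.36 points and 285. Under both, and without replicate 6, the intronic share lay below the intergenic one. Leaving out a replicate, which leaves 4349 to 4683 peaks, gave 5.77% to 6.54% of hairpins, 5.69% to 7.32% of intronic ones and 5.43% to 6.52% of intergenic ones, with differences of -10.1 to -9.33 points. Interval overlap gave 8.85% of hairpins and 10.6% of intronic ones. Hairpins within 10 kb counted as 1 locus gave 9.09%, 11% of intronic and 8.93% of intergenic loci. Without hairpins near protein-coding starts the shares were 5.15%, 6.67% and 4.17% and the difference -16.4 points. The other genes were not filtered in this way, so this difference is not like for like. Intronic hairpins on the host's strand gave 9.90%. The start of a spanning transcript, added after seeing the data, gave 36.3% of the 182 hairpins that have one. This share is counted per hairpin, so it is not like for like with the 25.2% of protein-coding and 17.2% of noncoding genes bound at any start. Counted per gene, 56 of 165 hosts (33.9%) had a bound start. Hosts were also longer than all genes of their kind. No difference from the 5' ends of other genes was computed for the share of hairpins.

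For noncoding hosts, windows of 500 and 2000 bp gave 24.3% and 40.5%, the strongest peaks and those found in all 3 replicates 24.3% each, and left-out replicates 24.3% to 29.7%. For protein-coding hosts the windows gave 28.9% and 41.4%, the strongest peaks 20.3%, those in all 3 replicates 27.3%, and left-out replicates 28.9% to 30.5%. Under these peak sets and left-out replicates hosts stayed above all genes of the kind, without matching for gene length. The length bands were not repeated under these settings. In the IDR list, protein-coding hosts of up to 5 kb lay below all such genes, at 17.1% beside 20.6%. From 5 to 20 kb they were at 43.6% beside 38.4%, and above 20 kb at 41.7% beside 41.0%. Noncoding hosts lay above all noncoding genes in each band, on few hosts.

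Of the 20 bound loci, mir-275, mir-92a, mir-2496, mir-4962 and mir-9377 were bound under all 8 windows, peak sets and left-out replicates. For mir-2496 this rested on different summits. It was the one at 467 bp in the 500 bp window, and the one at 751 bp among the strongest peaks and those in all 3 replicates. mir-4962 was bound among the strongest peaks through a summit 867 bp away. The 500 bp window lost 7 loci, the strongest peaks 11, and each left-out replicate 5. Smaller peak sets hold fewer peaks by construction. With unknown depth, weak occupancy at loci called not bound cannot be told from none.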
